A study of Mus musculus with 22 samples.

Results

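Long skipped exons are internal exons of more than 200 bases that are present in some transcripts of a gene and spliced out of others. They were taken from the 5 tables of skipped exon events that compare Stem with 1 other cell type of the mouse colon crypt, by the single rule that exon end minus exon start was over 200 bases. An event is 1 exon with 1 pair of flanking exons, so an exon with several pairs of neighbours gives several events. Joined by chromosome, strand and the coordinates of the 3 exons, the tables held 1155 long exon events out of 10801 events, on 1092 exons of 968 genes, and 273 of the long events stood in all 5 tables.

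RNA was sequenced in 22 libraries from untreated, wild-type male C57BL/6N mice of 5 to 7 weeks, in which colon epithelial cells (Epcam positive, Cd31 and Cd45 negative, live) were sorted into 6 populations. These were 3 libraries of Stem (highest Cd44, low Cd24, no Ckit), 3 of AbsPro, the absorptive progenitors (medium to high Cd44, low Cd24, no Ckit), 4 of SecPDG, a gate described by the study as mainly deep crypt secretory cells and secretory progenitors, with goblet cells at most a small part (high Cd44, medium Cd24 and Ckit by the labels), 5 of Tuft (high Cd24, Ckit positive), 5 of Enterocyte (low or no Cd44, no Cd24) and 2 of EEC, the enteroendocrine cells (low or no Cd44, Cd24 positive). Libraries of 1 cell type came from independent mice and sorts, and those of all populations other than Stem and AbsPro were made from pooled mice. No library of any group carried a transgene or an induced mutation.

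In most vertebrate genes, exons are short and are recognised by the spliceosome as a unit, with the U1 particle at the 5′ splice site after the exon and the U2 factors at the 3′ splice site before it. Exons far longer than the usual size are recognised less easily as units and depend more on enhancer sequences bound by SR proteins. Where a long exon is skipped, a whole protein domain can be lost, the reading frame can shift, or a stop codon that marks the RNA for decay can be avoided.

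The inclusion level estimates the share of transcripts, in percent, that keep the exon. It was computed per library from the reads that support inclusion and the reads that support skipping, each divided by the length of the form that they can come from, which was 99 bases for skipping and 99 bases plus the exon for inclusion. Reads inside the exon count as inclusion, so that for a long exon most inclusion counts come from its body, and a few skipping reads carry much weight. Reads from a first or last exon of another transcript over the same bases count as inclusion too. Such a terminal exon overlaps the exons described below of Ybx3, Snrnp70, Fkbp1a, Sorbs2, Ctnnd1, Med15, Mbnl1, Commd1 and Wnk1. Whether one overlaps the exons described below of Rtn3, Rtn4, Ndufv3, Rab11fip1, Gnas, Srsf3, Phf3, Tle3, Rbm47, Srpk1, Thrap3, Zzz3 and Ncoa6 is not given. The part of terminal exons in the levels was not tested. The libraries stand in these tables without names, and the number after a cell type is the place in the table, which cannot be tied to a numbered library of the gene counts.

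The sequences below, read on the strand of the gene from transcripts of the mm10 annotation, show what a long exon adds to an RNA in 4 genes on which the results turn. The 2 middle exons of Ceacam1, on the minus strand at chr7:25473798-25474052 and chr7:25474520-25474804, each hold a multiple of 3 bases without an in-frame stop, and the capitals mark their first and last 3 bases, next to the splice sites.
Ceacam1, exon of 255 bases: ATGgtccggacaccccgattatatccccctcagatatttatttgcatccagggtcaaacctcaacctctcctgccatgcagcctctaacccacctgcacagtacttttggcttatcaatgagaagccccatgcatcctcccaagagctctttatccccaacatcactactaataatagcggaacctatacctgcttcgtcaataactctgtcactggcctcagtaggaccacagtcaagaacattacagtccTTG
Ceacam1, exon of 285 bases: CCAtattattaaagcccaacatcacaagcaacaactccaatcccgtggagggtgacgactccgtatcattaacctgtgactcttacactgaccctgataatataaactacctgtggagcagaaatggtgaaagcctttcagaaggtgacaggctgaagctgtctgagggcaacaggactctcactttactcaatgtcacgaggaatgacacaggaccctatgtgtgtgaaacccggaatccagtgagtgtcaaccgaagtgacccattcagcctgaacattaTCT
They are shown whole because they are skipped together, as described further on, and aligned to each other they were identical at 51% of 290 positions, gaps included. The exon of Ybx3, on the minus strand at chr6:131375974-131376180, also keeps the frame, with the same marking.
Ybx3, exon of 207 bases: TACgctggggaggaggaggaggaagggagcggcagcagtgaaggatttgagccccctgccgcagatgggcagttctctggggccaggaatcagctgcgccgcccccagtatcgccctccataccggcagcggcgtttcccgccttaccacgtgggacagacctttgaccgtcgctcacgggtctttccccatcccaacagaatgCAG
By contrast, the exons of Prr14l at chr5:32844044-32844564 and of Snrnp70 at chr7:45381825-45383184, both on the minus strand, open with a stop codon in the frame that the upstream exon carries in, and the capitals in their first 30 bases mark that stop, which starts at base 25 and base 24 of the exon.
Prr14l, first 30 of 521 bases: ggtaaaccattgatgcaaaagactTGActc
Snrnp70, first 30 of 1360 bases: ccaccacgcagctggcttgcagcTGAtgct

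As a group, the long exons had a median length of 254.5 bases (quartiles 219 and 411.5), and 92 of the 1092 exons were over 1000 bases, up to 5970. Fully coding exons made up 71.7% of the long exons, against 87.7% of the 7849 exons of 61 to 200 bases and 86.7% of the 1278 exons of up to 60 bases, and exons that are coding only in part, where a start or a stop codon lies within, made up 19.1%, 4.99% and 3.60%. A terminal exon of another transcript overlapped 52.0% of the long exons, against 37.2% and 33.9% in the 2 shorter classes. A length that is a multiple of 3, which keeps the reading frame whether the exon is in or out, was found in 42.9% of the long exons, in 40.5% of the middle class and in 51.1% of the shortest. Where the frame carried in from the upstream exon was known, an in-frame stop lay in 61 of 738 long exon events (8.27%), against 298 of 6519 (4.57%) and 45 of 1047 (4.30%). The median GC content was 52.2%, 49.3% and 47.5% from the longest to the shortest class. These are counts over the whole annotation of the listed exons, without a test.

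Of the 1155 long events, 289 (282 exons, 263 genes) passed the count minimum in at least 1 table, with a mean of at least 20 counts in each of the 2 cell types and at least 10 inclusion and 10 skipping counts in all, and 866 passed in none. The fit of the 6 cell types together held 118 long events of 608. In it, the inclusion plus skipping counts on the long events ranged between 59494 and 68657 for Stem, 55924 and 72702 for AbsPro, 40633 and 50915 for SecPDG, 21832 and 57775 for Tuft, and 16546 and 39718 for Enterocyte. The 2 EEC libraries had 6449 and 30903, and the first of them had no count at all on 28 of the 118 events. Counts outside genes made up 41.3% to 49.8% of the counts of the gene tables in Stem, AbsPro and SecPDG, 43.9% to 68.4% in Tuft, 67.2% to 83.3% in Enterocyte, and 64.9% and 89.9% in EEC. Their part in the inclusion levels was not tested. The marker genes of each gate were present, with a summed level of 801 to 1056 CPM (counts scaled to a common library total) for 5 stem cell genes in Stem, 1952 to 5121 CPM for 5 tuft cell genes in Tuft, and 80101 and 107613 CPM for 5 enteroendocrine genes in EEC. The 5 absorptive genes summed to 3964 to 6130 CPM in AbsPro and 3746 to 6537 in Enterocyte, and also to 2809 and 8245 in EEC. A list of 6 deep crypt secretory and goblet genes reached 51179 to 73287 CPM in Tuft, which overlapped the 40162 to 104550 CPM of SecPDG. The 5 genes of immune cells summed to 2.15 to 11.2 CPM in Stem, AbsPro and SecPDG, 89.1 to 255.0 in Tuft, 18.7 to 63.4 in Enterocyte, and 34.8 and 162 in EEC, where Cd79a was at 0. The 5 stromal genes summed to 126 and 359.5 CPM in EEC and 40.9 to 130.1 in Enterocyte, against 2.91 to 16.9 for Stem, 12.1 to 93.6 for AbsPro, 2.87 to 13.8 for SecPDG and 10.1 to 36.9 for Tuft. The 4 endothelial genes summed to 0 to 4.21 CPM in Stem, AbsPro and SecPDG, 8.42 to 36.3 in Tuft, 20.1 to 80.4 in Enterocyte, and 51.3 and 177 in EEC. The part of these other cells in the inclusion levels was not tested.

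The first question was which long exons are used differently anywhere in the crypt. By edgeR's quasi-likelihood F test over the 6 cell types, 7 of the 118 long events differed at an adjusted p under 0.05, while 25 of all 608 events did (4.11%). At an unadjusted p under 0.05, 19 long events passed, beside 13.2% of all events. The 7 events lie in 6 genes. They are the 2 middle exons of Ceacam1, an adhesion receptor of the immunoglobulin family on epithelial cells, and 1 exon each of Ybx3, a cold shock domain protein that binds RNA and DNA, of Snrnp70, which encodes the 70K protein of the U1 particle, of Naca, a subunit of the complex that meets nascent chains at the ribosome, of Prr14l and of 9930021J03Rik. None of the 7 passed the adjusted threshold without the 2 EEC libraries, while 5 of them, all but Ybx3 and 9930021J03Rik, kept an unadjusted p under 0.05. In that fit 0 of 147 long events and 2 of all 823 were called by the same test, 18 long events had an unadjusted p under 0.05, and the adjusted p of the 7 events lay between 0.162 and 0.676. With all libraries, DESeq2 called 2 of the 118 long events and 3 of all 608, and a quasi-binomial model called 28 and 123. With its default dispersion edgeR called 0 of the 118 and 0 of the 608, with 5 long events at an unadjusted p under 0.05.

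**Figure D1:**
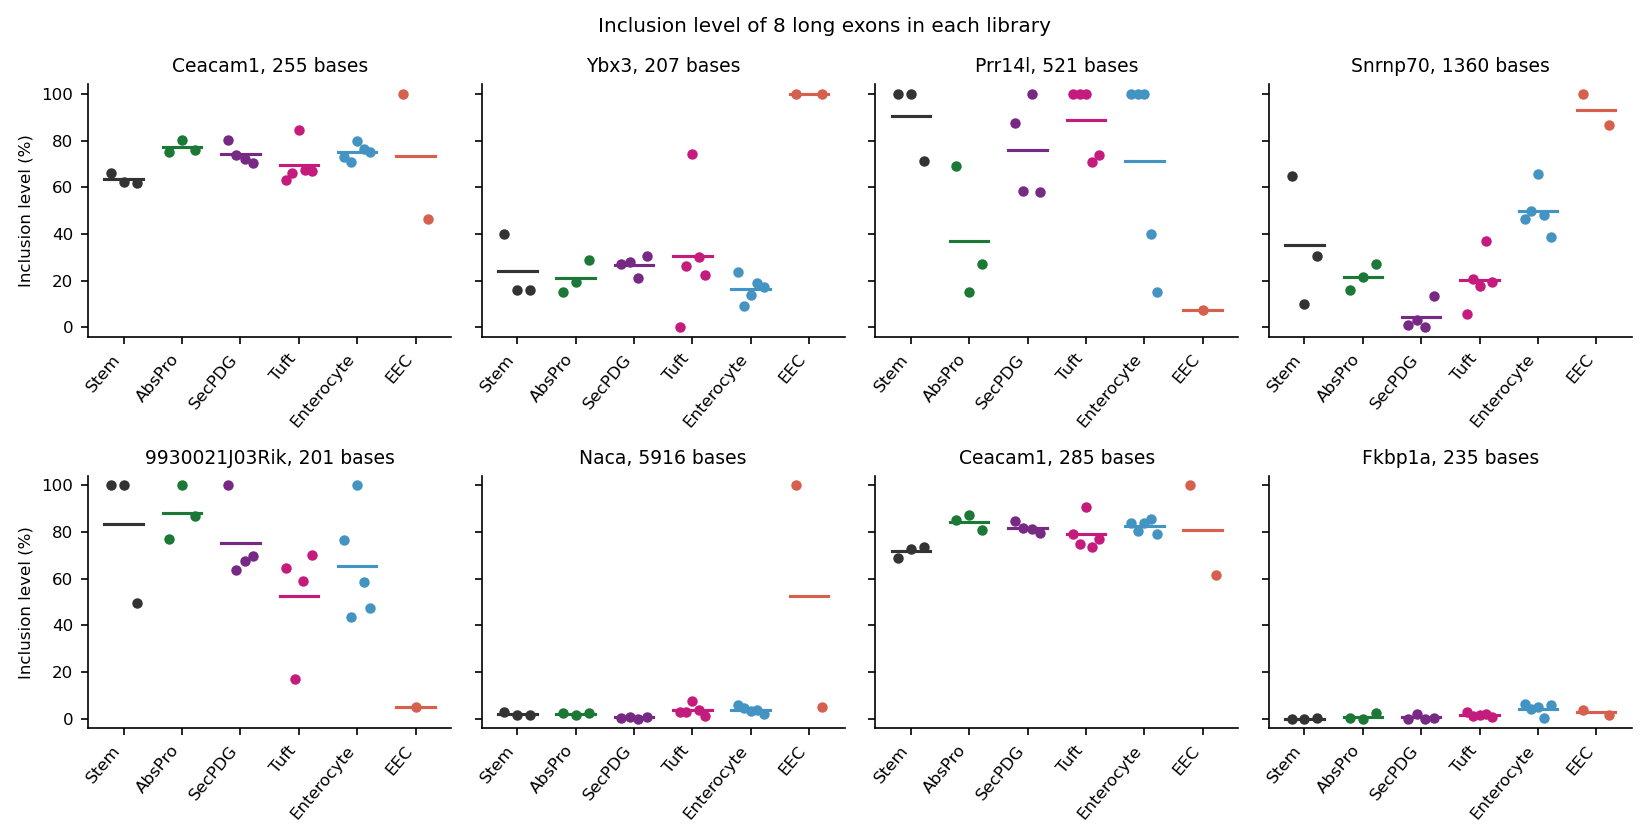
Inclusion level in percent (vertical axis) of the 8 long exons with the smallest p over the 6 cell types, with 1 point per library and a bar at the mean of each cell type. The mean of both Ceacam1 exons is lowest in Stem, Ybx3 is at 100% in both EEC libraries, and Prr14l, 9930021J03Rik and Naca show 1 EEC library far from the other libraries or with no count in the other.

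Ceacam1 gave the most counts of the 7, 36269 on the exon of 285 bases and 21837 on the exon of 255 bases. Its extracellular part is built of immunoglobulin domains, and these 2 middle exons encode such domains, so that forms without them have a shorter extracellular part. The well known long and short tails of the protein come from another, shorter exon. In Stem, the exon of 285 bases was included at 69.0%, 72.9% and 73.7%, and in AbsPro at 85.0%, 87.4% and 80.8%. The 4 SecPDG libraries were at 84.6%, 81.8%, 81.2% and 79.7%, and the 5 Enterocyte libraries at 83.7%, 80.5%, 84.0%, 85.4% and 79.3%. No library of these 3 cell types overlapped Stem. The Tuft libraries were at 79.0%, 74.9%, 90.8%, 73.7% and 77.2%, the lowest of them next to the highest of Stem, and the EEC libraries were on either side of all others, at 100% and 61.4%. The means were 71.9% ± 2.52 (SD, n = 3) in Stem, 84.4% ± 3.36 (n = 3) in AbsPro, 81.8% ± 2.06 (n = 4) in SecPDG, 79.1% ± 6.85 (n = 5) in Tuft, 82.6% ± 2.56 (n = 5) in Enterocyte and 80.7% ± 27.3 (n = 2) in EEC.

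The exon of 255 bases, exon 4 of 8 in the annotated transcript, had the same order of means. It was at 66.2%, 62.2% and 61.9% in Stem, and at 75.2%, 80.4% and 75.8% in AbsPro. In SecPDG it was at 80.3%, 73.9%, 72.2% and 70.3%, in Enterocyte at 73.1%, 70.6%, 79.7%, 76.5% and 75.1%, and in Tuft at 63.0%, 66.3%, 84.4%, 67.4% and 67.0%. Stem lay below every library of AbsPro, SecPDG and Enterocyte and overlapped Tuft. EEC 1, with 20 inclusion and 0 skipping counts, was at 100%, where a count of 0 allows a level down to 65.1%, and EEC 2 was at 46.4% on 675 counts. By edgeR the exon of 255 bases differed over the 6 cell types at an adjusted p of 0.00807 and the exon of 285 bases at 0.0402. The first call was lost without EEC 2 (adjusted p = 0.144), and the second in 18 of 22 fits that each left out 1 library.

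The 2 Ceacam1 events are not independent, because both have the same outer neighbours and the same skipping counts, which are reads that join exon 2 to exon 5 and lack both exons. Against Stem alone, edgeR called neither exon in any table. For the exon of 285 bases the difference from Stem was 12.5 percentage points in AbsPro (adjusted p = 0.727), 9.97 in SecPDG (adjusted p = 0.671), 7.27 in Tuft (adjusted p = 0.634) and 10.7 in Enterocyte (adjusted p = 0.266). The same exon of 255 bases with the exon of 285 bases as its neighbour is a separate event, with reads that leave out only the shorter exon, and its mean level was 99.3% to 99.7% in all cell types but EEC, where it was 95.7% (adjusted p = 0.124 over the 6 cell types by edgeR). The mirror event, in which only the exon of 285 bases is left out, had a mean level of 99.8% in Stem, 99.7% in AbsPro and 100% in the other 4 cell types (adjusted p = 0.778). Reads that lack 1 of the 2 exons were thus few beside reads that lack both. At the level of the whole gene, Ceacam1 was at a log2 fold change of 0.98 in AbsPro, 1.20 in SecPDG and 1.04 in Enterocyte against Stem by edgeR, with adjusted p of 0.495, 0.215 and 0.107.

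**Figure D2:**
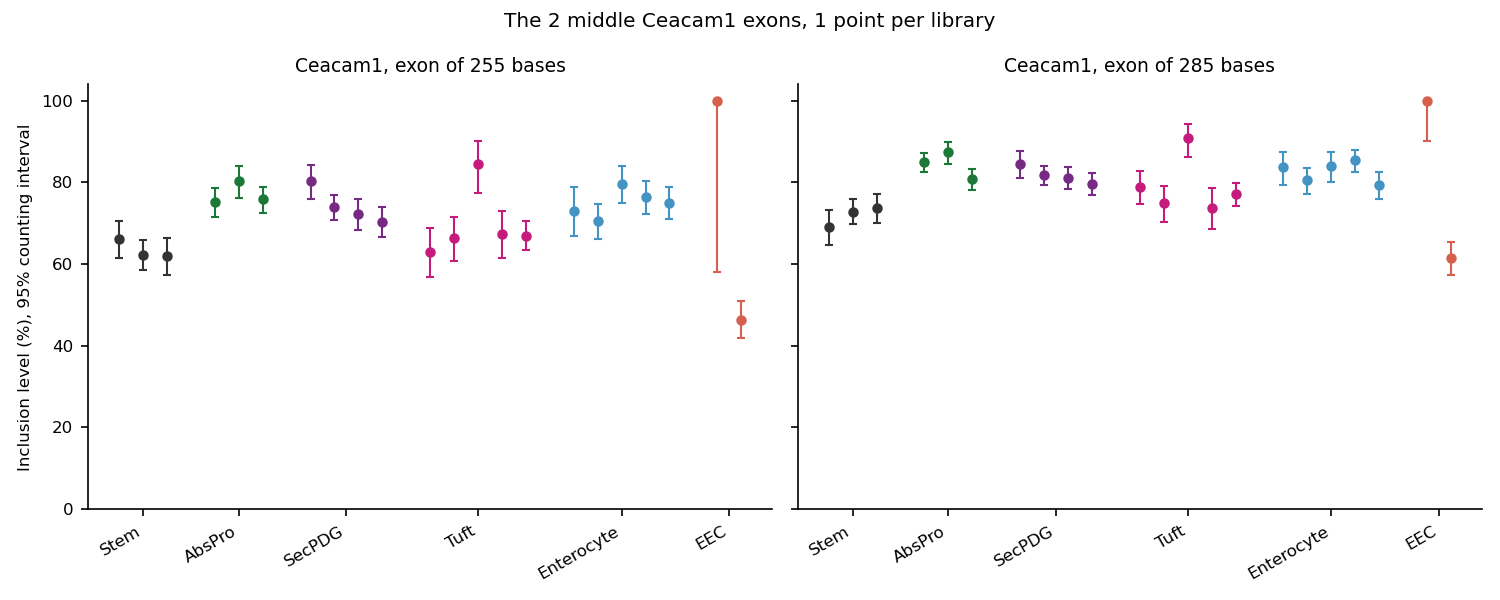
Inclusion level in percent of the 2 middle Ceacam1 exons, with 1 point per library, grouped by cell type, and exact 95% intervals that cover counting error alone. The 3 Stem libraries lie below those of AbsPro, SecPDG and Enterocyte in both panels, and the 2 EEC libraries lie far apart.

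Ybx3 turned on the EEC libraries. Its exon of 207 bases, exon 6 of 10, encodes the stretch that distinguishes the long from the short form of this protein. EEC 1 had 66 inclusion counts and EEC 2 had 114, both with 0 skipping counts, which puts the level at 100% and allows 87.7% and 92.5% at the least. Stem was at 39.8%, 16.2% and 15.9%, AbsPro at 15.0%, 19.3% and 28.7%, and SecPDG at 27.3%, 28.1%, 21.2% and 30.4%. Enterocyte was at 23.9%, 9.0%, 13.9%, 19.0% and 17.2%, and Tuft spread from 0% on 3 counts to 74.4% on 40, with a median of 26.2%. Thus 19 of the 20 libraries outside EEC were under 40%, and both EEC libraries were at 100%. The adjusted p by edgeR was 0.0110 over the 6 cell types, with 0.0567 without EEC 1 and 0.238 without EEC 2. Against Stem alone the difference in EEC was 76.0 points (adjusted p = 0.171). The RNA of the gene as a whole was lower than in Stem by edgeR in EEC (log2 fold change -2.28, adjusted p = 0.00132) and in Enterocyte (-1.47, adjusted p = 0.00320), and Ybx3 was the only one of the 6 host genes called at gene level, in these 2 comparisons, where 14% and 13.5% of all genes were called. In AbsPro, SecPDG and Tuft none of the 6 host genes was called, beside 0.364%, 3.1% and 6.44% of all genes.

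Snrnp70 encodes a core protein of the particle that recognises 5′ splice sites, and its exon of 1360 bases is annotated only in transcripts without a protein, such as one where it is exon 8 of 11. The long exon was included at 0.841%, 3.05%, 0% and 13.3% in SecPDG, and at 15.9%, 21.5% and 27.2% in AbsPro. Stem spread from 10.2% and 30.4% to 64.8%. Tuft was at 5.90%, 20.7%, 17.9%, 36.9% and 19.3%. Enterocyte was higher than all SecPDG, AbsPro and Tuft libraries, at 46.6%, 49.8%, 65.5%, 48.3% and 38.7%, and EEC was at 100% on 54 counts, with 0 skipping counts, which allows 55.0% at the least, and at 86.6% on 672. Over the 6 cell types the adjusted p by edgeR was 0.0171, and 0.169 without EEC 2. The difference of SecPDG from Stem was -30.8 points (adjusted p = 0.104), that of EEC from Stem was 58.2 points (adjusted p = 0.200), and that of SecPDG from AbsPro was -17.2 points (adjusted p = 0.249). The mean share of counts outside genes was also highest in Enterocyte and EEC, at 76.7% and 77.4%, and lowest in SecPDG, at 44.1%. In Tuft this share was higher than in Stem (61.3% against 47.5%), while the mean level of the exon was lower (20.2% against 35.1%). The part of this share in these levels was not tested.

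Naca is known for a muscle form, skNAC, that carries 1 giant exon. That exon, at chr10:128039171-128045086 and 5916 bases long, was nearly always skipped. It was at 3.14%, 1.58% and 1.86% in Stem, at 2.66%, 1.49% and 2.70% in AbsPro, and at 0.393%, 1.03%, 0.0924% and 0.929% in SecPDG. All SecPDG libraries were lower than all Stem libraries (difference -1.58 points, adjusted p = 0.439 by edgeR). Tuft was at 1.09% to 7.68% with a median of 3.13%, and Enterocyte at 2.06% to 6.06% with a median of 3.67%. EEC 2 was at 5.03%, within this range, and EEC 1 at 100%, from 149 inclusion and 0 skipping counts, which allows 45% at the least. The adjusted p of 0.0402 over the 6 cell types became 0.102 without EEC 1, and the call stood in 10 of 22 fits that left out 1 library each.

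The last 2 exons called had counts in only 1 of the 2 EEC libraries. The exon of Prr14l that opens with the stop codon shown above was at 100%, 100% and 71.2% in Stem, and at 69.1%, 15.2% and 27.1% in AbsPro. In SecPDG it was at 58.1% to 100%, in Tuft at 71.0% to 100% and in Enterocyte at 15.4% to 100%. EEC 2 was the lowest of all, at 7.66% on 79 counts. AbsPro lay below Stem in all libraries, without a call (difference -53.3 points, adjusted p = 0.727 by edgeR), and the last AbsPro library had 10 counts. The exon of 9930021J03Rik, 201 bases at chr19:29786249-29786449, was at 49.7% or more in Stem, at 76.9% or more in AbsPro and at 63.9% or more in SecPDG, with 1 to 2 libraries of each at 100%. The 4 Tuft libraries with counts were at 17.1% to 70.2%, the Enterocyte libraries at 43.5% to 100%, and EEC 2 was at 5.11% on 57 counts. For this exon the libraries at 100% allow levels down to 43.5% and 84.1% in Stem and 83.8% in AbsPro. In SecPDG the bound is 43.5%, on 7 counts, and in Enterocyte 9.91%, on 1 count. For both exons the lone EEC library is assumed to vary like the others, with an adjusted p of 0.0116 for Prr14l and 0.0197 for 9930021J03Rik. Each call stood in all 19 fits that left out 1 library and could be run. The fit without EEC 2 was not among them, because EEC 1 had 0 counts on both exons. Without both EEC libraries the adjusted p was 0.162 and 0.655, and Prr14l alone of the pair kept an unadjusted p under 0.05.

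The next 3 exons in the order of p did not pass. Fkbp1a encodes the small peptidyl-prolyl isomerase that binds FK506 and rapamycin, and its exon of 235 bases at chr2:151543906-151544140, plus strand, lies in transcripts without a protein and holds an in-frame stop at base 93, in capitals here with the bases around it.
Fkbp1a, bases around the stop: ccccttacttctaTGActtcttgagtaga
Almost no transcript kept this exon in Stem, at 0%, 0% and 0.497%, on 302 to 868 counts per library. In Enterocyte it was at 6.24%, 4.36%, 5.04%, 0.199% and 6.00%, so that 4 of 5 libraries were above all of Stem, AbsPro, SecPDG and Tuft (difference from Stem 4.20 points, adjusted p = 0.103 by edgeR). The adjusted p was 0.0593 over the 6 cell types. The exon of 1581 bases of Sorbs2, an adaptor with SH3 domains at the actin cytoskeleton, was at 100% in 3 of 5 Enterocyte and in both EEC libraries, at 0% to 4.41% in the 3 SecPDG libraries with counts, and at 1.58%, 7.00% and 100% in Stem, on at most 70 counts in a library (adjusted p = 0.139). With 0 skipping counts on 11 to 53 inclusion counts, the libraries at 100% allow levels down to 17.8% to 20.3% in Enterocyte, 25% and 51% in EEC and 33.8% in Stem. The exon of 2061 bases of Prrc2b, an RNA-binding protein, was at 100%, 94.3% and 50.4% in Stem, at 22.5% to 52.5% in SecPDG and at 100% in both EEC libraries (adjusted p = 0.152).

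Ctnnd1, p120 catenin, which holds cadherins at the cell surface, has a long exon of 289 bases near its start, at chr2:84624270-84624558. The study named Ctnnd1 for the splicing of another part of the gene, near its end. It was included at 28.8%, 41.0% and 50% in Stem, 44.0%, 45.8% and 39.2% in AbsPro, and 100%, 50.3%, 60.3% and 48.1% in SecPDG. The AbsPro libraries lay within the range of Stem, and 3 of 4 SecPDG libraries lay above it. The difference from Stem was 3.01 points in AbsPro (adjusted p = 0.855) and 24.7 in SecPDG (adjusted p = 0.695) by edgeR, and over the 6 cell types the adjusted p was 0.333. Spen, Itga6, Eif4a2 and Cbfa2t2, which the study also named for splicing, had no long event.

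Some long exons exceed the usual exon size many times over, and their levels ranged from almost always skipped to almost always kept. In the fit of the 6 cell types 19 exons were over 1000 bases, each in another gene, of which 11 were fully coding and 9 kept the frame. In Stem 2 of them were included at up to 10% (Naca and Rtn3), 7 at 90% or more, and 10 lay between. Of these exons 2 were called, Snrnp70 and Naca, and 9 had an unadjusted p under 0.05, beside 4.11% and 13.2% of all 608 events. The large exon of Rtn3, a reticulon that shapes the endoplasmic reticulum, stood near that of Naca at 2.11% ± 1.39 in Stem (SD, n = 3) and 0.498% ± 0.716 in SecPDG (n = 4), and was at 9.85% and 13.6% in EEC (adjusted p = 0.175 over the 6 cell types). The large exon of its relative Rtn4, which makes the Nogo-A form, was at 89.0% ± 19.1 in Stem, 54.5% ± 48.8 in AbsPro (n = 3, from 3.04% to 100%), 76.1% ± 24.9 in Tuft (n = 5), 75.8% ± 23.6 in Enterocyte (n = 5) and 100% in all 4 SecPDG and both EEC libraries (adjusted p = 0.333). Ndufv3, a subunit of complex I whose long form carries the exon of 1092 bases, had 23.3% ± 11.6 in Stem, 12.1% ± 4.90 in Enterocyte (n = 5) and 28.8% ± 4.26 in EEC (n = 2). The exon of 1563 bases of Rab11fip1, an effector of Rab11 in endosome recycling, had 58.5% ± 13.6 in Stem and 28.5% ± 9.36 in SecPDG, and for it and Ndufv3 the adjusted p was 0.488. Gnas, which encodes the stimulatory G protein alpha subunit, had 77.4% ± 7.83 in Stem for an exon of 2327 bases and 90.1% to 100% as the mean of the other cell types (adjusted p = 0.371).

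**Figure D3:**
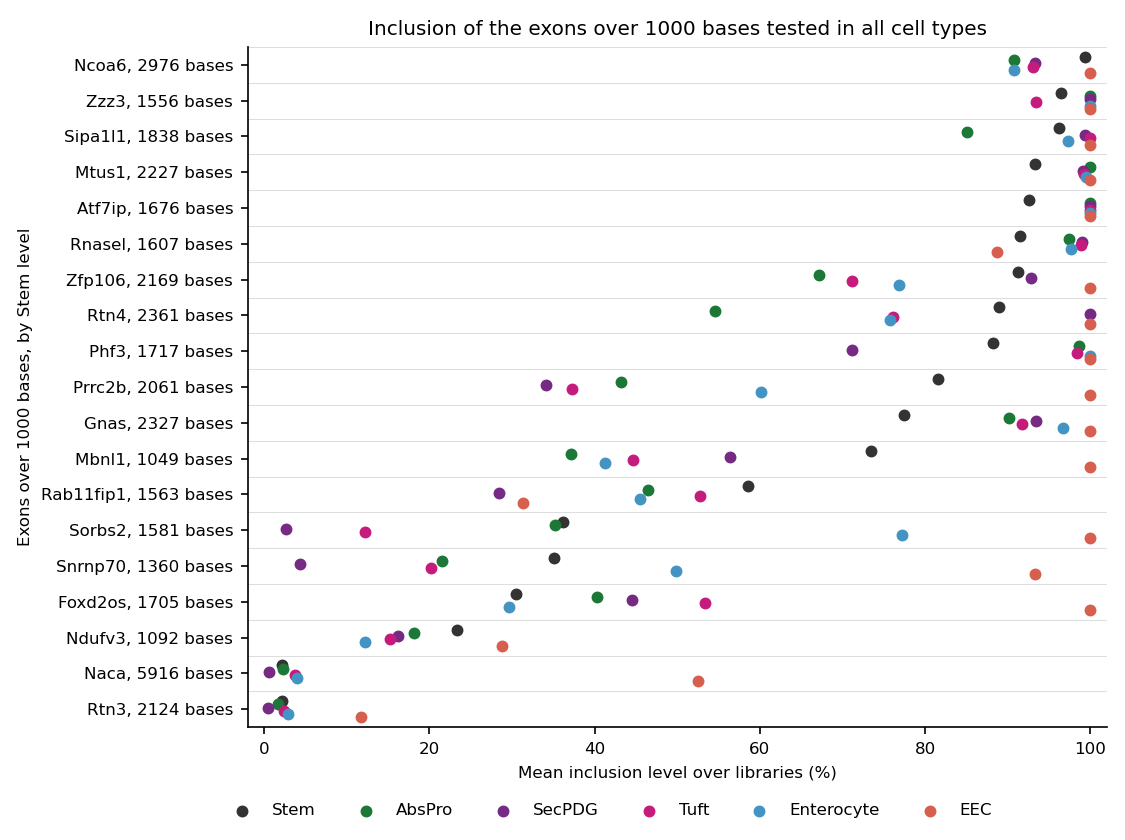
Mean inclusion level in percent (horizontal axis) of the 19 exons over 1000 bases, 1 row per exon in the order of the Stem mean, with 1 point per cell type. Rows range from Rtn3 and Naca, skipped almost everywhere, to Zzz3 and Ncoa6, with Stem means of 96.4% and 99.3%.

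Against Stem taken alone, no long exon was called by edgeR in any of the 5 tables. In AbsPro 0 of 196 were called (0% of all 1582 events), with 11 at an unadjusted p under 0.05 (4 higher, 7 lower) beside 3.35% of all events. In SecPDG 0 of 190 were called (0.072% of 1389), with 18 at p under 0.05 (4 higher, 14 lower) beside 7.42%. In Tuft 0 of 183 were called (0% of 1218), with 10 (5 higher, 5 lower) beside 6.16%. In Enterocyte 0 of 153 were called (0% of 918), with 18 (9 higher, 9 lower) beside 6.43%. In EEC 0 of 112 were called (0.166% of 603), with 10 (7 higher, 3 lower) beside 7.96%. DESeq2 and the quasi-binomial model called 0 long events in the first 4 tables, and 1 and 3 in EEC. These counts stand without the share of all events called by the same model, and are not read as a trait of long exons. Between the progenitors, SecPDG against AbsPro, edgeR called 0 of 118 long events (0.658% of all 608), with 9 at p under 0.05 beside 7.4%, and DESeq2 and the quasi-binomial model called 0. Counts were also simulated at the depth and spread of these libraries. In each comparison with Stem, 200 events were changed by 1 or 2 units in the log odds of inclusion. Of these the edgeR test called 8 in AbsPro, 6 in SecPDG, 18 in Tuft, 51 in Enterocyte and 0 in EEC. Unchanged simulated events had an unadjusted p under 0.05 in 4.78% to 8.91% of cases. A count of 0 calls thus does not show that no long exon changed. In the simulated fit of the 6 cell types, 7.60% of the unchanged events had an unadjusted p under 0.05 by the edgeR test. Of its 48 calls there, 4 were unchanged events. With edgeR's default dispersion the share was 2.45%, and 0 of 23 calls were unchanged events.

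The median difference from Stem over the long events was 1.39 points in AbsPro, 1.94 in SecPDG, 4.18 in Tuft, 2.89 in Enterocyte and 10.5 in EEC, and over all events tested it was 0.17, 1.76, 2.72, 1.75 and 5.80. The exons over 1000 bases had medians of the opposite sign in 3 of the 5 comparisons, with -7.28 points in AbsPro (9 higher, 16 lower), -10.8 in SecPDG (6 higher, 12 lower) and -4.43 in Tuft (10 higher, 12 lower), and with 1.09 in Enterocyte and 15.1 in EEC. Libraries that do not overlap between the 2 cell types were found for 13 long events in AbsPro (5 higher, 8 lower, beside 5.82% of all events), 10 in SecPDG (4 and 6, beside 4.1%), 5 in Tuft (4 and 1, beside 2.71%), 8 in Enterocyte (6 and 2, beside 3.59%) and 27 in EEC (20 and 7, beside 23.1%). The 5 comparisons share the 3 Stem libraries, so their values are not independent.

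**Figure D4:**
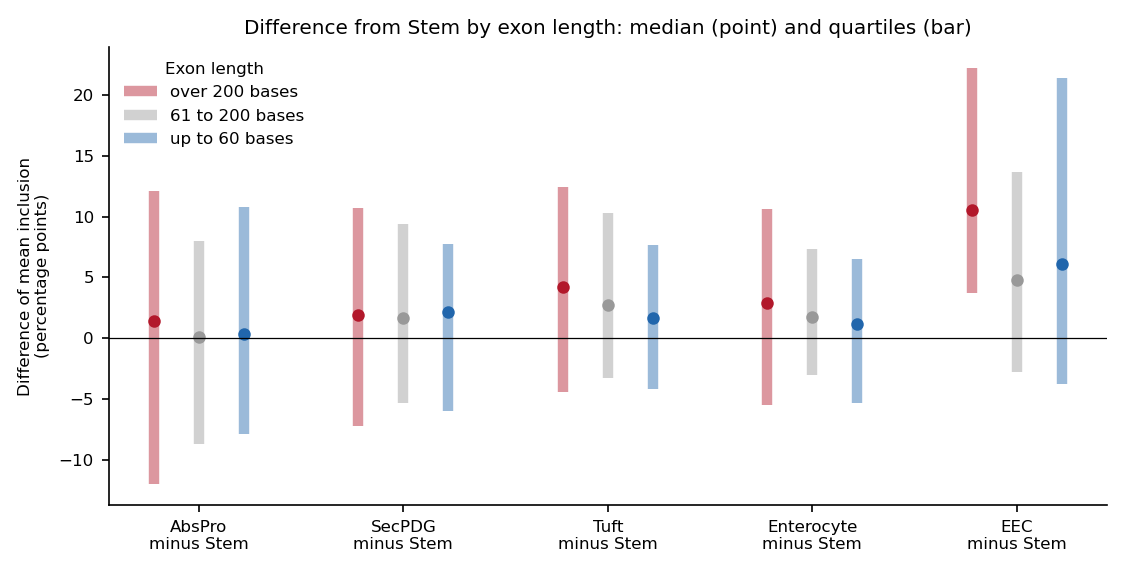
Difference of the mean inclusion level from Stem in percentage points (vertical axis) for exons over 200, of 61 to 200 and of up to 60 bases in the 5 comparisons, with a point at the median and a bar from the first to the third quartile over the events tested. The bars cross 0 in all length classes except the long exons of EEC, which have a median of 10.5 points and quartiles of 3.72 and 22.3.

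The higher levels in EEC stand beside a difference in how the tables were filled. Every listed event has at least 1 skipping count in 1 of the 2 cell types. In the EEC table, 230 of the 288 long events (79.9%) had no skipping count in either EEC library and only 12 (4.17%) had none in Stem, and over all 1984 events these shares were 76.7% and 5.59%. In the table of AbsPro, 33.5% of the 522 long events had no skipping count in AbsPro and 33.9% had none in Stem. The other tables were uneven in the opposite direction to EEC. No skipping count was found for 22.3% of the long events in SecPDG and 47.8% in Stem. These shares were 19.9% and 50.7% in the table of Tuft, and 22.6% and 45.7% in that of Enterocyte. Most long events of the EEC table thus stand in it through skipping counts in Stem alone. The EEC libraries include the one with the fewest counts, and the part of depth and of this listing in the higher EEC levels was not tested. Over the 118 long events tested together, the median of the mean level was 90.5% in Stem, 97.4% in AbsPro, 96.2% in SecPDG, 96.1% in Tuft, 95.9% in Enterocyte and 100% in EEC.

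**Figure D5:**
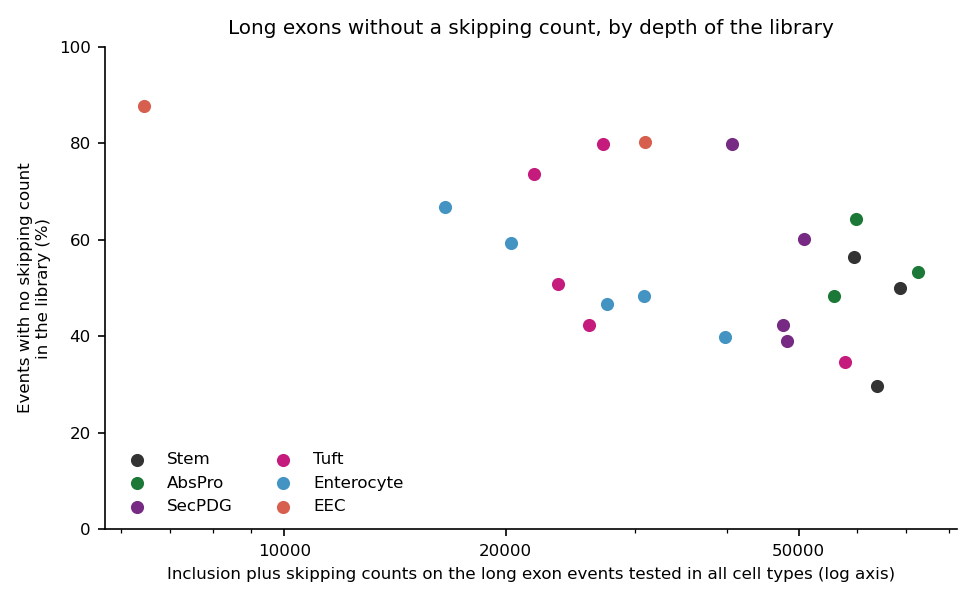
Share in percent of the long events with counts that had no skipping count in a library (vertical axis), against the inclusion plus skipping counts of that library on the long events (horizontal log axis), with 1 point per library. The share is 29.7% to 56.4% in Stem and 87.8% and 80.3% in EEC, and Tuft and SecPDG each hold libraries near 80%.

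Replicate libraries of Stem differed most where counts were few. In Stem, the median SD of the level of a long exon was 13.2 points over the 115 events with fewer than 300 Stem counts, 8.07 over the 103 events with 300 to under 1000, and 4.75 over the 71 events with at least 1000. In the joint fit the median SD over the long events was 9.80 points in Stem, 1.95 in AbsPro, 3.77 in SecPDG, 4.24 in Tuft and 4.44 in Enterocyte. It was 0 in EEC, where the median level was 100%. For the other events it was 6.22 in Stem and 2.37 in AbsPro. Among the events of this fit the spread was thus largest in Stem, whose libraries were among those with the most counts. These events all stand in the EEC table too, where 79.9% of the long events had no skipping count in EEC and 4.17% had none in Stem. An exon without skipping counts is at 100% in every library and has no spread. The part of this listing in the larger Stem spread was not tested. In 18 of the 118 long events the SD in Stem was over 25 points.

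Several exons with the smallest p of a single comparison, chosen after their values were seen, differed from Stem through 1 or 2 libraries. Creb3l1 encodes a transcription factor of the endoplasmic reticulum membrane, and its exon of 229 bases was kept in every read of 18 libraries outside Stem and of 2 Stem libraries, while Stem 1 had 60 skipping beside 498 inclusion counts, or 71.5%. The difference of 9.51 points in SecPDG had an adjusted p of 0.104 by edgeR. Commd1, a regulator of copper transport and NF-kappa-B, had 49.2%, 100% and 91.6% in Stem for its exon of 282 bases and 100% in all AbsPro libraries. Prpf39, a protein of the U1 particle, had 100% in all 3 Stem libraries for an exon of 347 bases, and in SecPDG 20.7% in 1 library and 100% in the other 3 (adjusted p = 0.104). Med15, a subunit of the Mediator complex, was at 100% in Stem for an exon of 213 bases and at 100%, 11.7% and 39.8% in AbsPro (adjusted p = 0.727).

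The remaining exons chosen in this way lie in Mbnl1, Cdhr5, Wnk1 and Kmt2d. Mbnl1, a splicing regulator, holds an exon of 1049 bases that was at 65.0%, 95.2% and 60% in Stem, 53.2%, 21.5% and 36.9% in AbsPro, and 50.9%, 37.9%, 36.2%, 53.4% and 27.6% in Enterocyte. The SecPDG libraries were at 100%, 32.9%, 40.7% and 51.6%, and both EEC libraries were at 100%, on 16 and 159 counts. Neither AbsPro nor Enterocyte overlapped Stem (differences -36.2 and -32.2 points, adjusted p = 0.727 and 0.615 by edgeR). Cdhr5, a protocadherin of the brush border, had an exon of 486 bases at 87.5%, 56.4% and 59.4% in Stem and at 80.7% to 94.7% in Tuft (difference 18.3 points, adjusted p = 0.467). Wnk1, a kinase that controls chloride cotransporters, had an exon of 1236 bases at 2.33%, 4.93% and 4.78% in Stem and at 6.37% to 100% in Enterocyte on 12 to 44 counts per library (difference 38.5 points, adjusted p = 0.482). Kmt2d, a histone H3 lysine 4 methyltransferase, had an exon of 222 bases at 100% in all 3 Stem libraries, on 1, 35 and 66 counts, and at 5.86% in the 1 EEC library with counts (adjusted p = 0.200).

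By function, the lists of genes held few long exons that could be tested. Splicing factors, which often carry long exons with stop codons in their own genes, had 23 long exons in 19 genes, of which 8 events were tested in AbsPro, 9 in SecPDG, 7 each in Tuft and Enterocyte and 5 in EEC. None was called in these comparisons, and 1, Snrnp70, was called over the 6 cell types. Their median difference from Stem was -8.12 points in AbsPro (6 of 8 lower), -17.1 in SecPDG (6 of 9 lower), -1.17 in Tuft and -1.59 in Enterocyte, and 20.0 in EEC (5 of 5 higher). Of all long events tested, 52.0% were higher than Stem in AbsPro, 55.3% in SecPDG and 81.2% in EEC. In Srsf3, an SR protein, the exon of 456 bases, found only in transcripts marked for nonsense-mediated decay, was at 80.0% ± 29.1 in Stem (n = 3), 47.3% ± 17.2 in the 3 SecPDG libraries with counts and 92.0% ± 10.9 in Tuft (n = 5), with an adjusted p of 0.422 over the 6 cell types. In Rbm47, Srpk1 and the 2 exons of Thrap3, the mean level was 93.5% or more in every cell type.

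Regulators of chromatin and transcription had 37 long exons in 30 genes, with a median difference of 11.7 points in AbsPro (9 of 11 higher), 9.29 in SecPDG (7 of 10), 12 in Tuft (9 of 12), 7.19 in Enterocyte (6 of 6) and 15.5 in EEC (7 of 8), and none was called. Among all long events tested, the share higher than Stem was 52.0%, 55.3%, 64.5%, 58.8% and 81.2% in the same order. The exon of 1717 bases of Phf3 was at 67.9% to 100% in Stem, 11.9% to 95.6% in SecPDG (71.2% ± 40.0, n = 4), 95.8% or more in AbsPro, 98.4% ± 2.34 in Tuft (n = 5), and 100% in all Enterocyte and EEC libraries (adjusted p = 0.473 over the 6 cell types). Genes of Wnt, Notch and hedgehog signaling gave 2 events each in AbsPro, SecPDG, Tuft and EEC and 3 in Enterocyte, of which none was called. Among them, the exon of 205 bases of the Groucho corepressor Tle3 had 89.4% ± 9.44 in Stem and 100% in every library of the other 5 cell types (adjusted p = 0.637). All its skipping counts were thus in Stem. It passed the count minimum through them alone, so its direction was fixed by that filter. The median difference of this list from Stem ran from 6.81 points in AbsPro to 24.0 in EEC, with Tle3 among the events of every comparison. The other 4 lists had no called event either. From AbsPro, SecPDG, Tuft and Enterocyte to EEC, the median difference was -6.71, 8.56, -16.3, 6.61 and 14.4 points for sumoylation and ubiquitin enzymes (1 to 5 events tested), and -4.25, -6.77, -11.8, 20.7 and 32.1 points for cell adhesion and the cytoskeleton (2 to 4 events). For zinc finger genes it was -18.1, 1.58, -13.0, -11.8 and 13.5 points (2 to 4 events). For cell cycle and DNA repair genes it was -12, 4.27, -0.46 and -3.02 points, on 2 to 4 events, and none could be tested in EEC. With so few events per list, each of these medians rests on few exons.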

How the data were processed

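RNA from the 22 sorted libraries was sequenced by the authors after low-input library preparation and aligned to mm10, and the submitters' processing notes name STAR 2.5.2a, SAMtools 1.3 and HTSeq 0.6.1p1. The deposited gene tables hold raw read counts, with 4122122 to 22462518 counts on genes per library. The 5 rows that name no gene held 53.9% to 91.6% of counts and were left out. For splicing, the authors ran rMATS, and each cell of the deposited tables gives comma-separated inclusion and skipping counts per library (junction and exon body reads), without library names. The authors' own p-values, inclusion levels and differences in them were not used.

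Long exons were those over 200 bases. The members and gene lists were chosen with earlier results of these data known. Inclusion and skipping counts were tested with edgeR 4.0.16 (R 4.3.3), using the quasi-likelihood F test with a term per library, inclusion, and inclusion by cell type, Benjamini-Hochberg adjustment over all events tested, and adjusted p under 0.05. The mean and variance were Poisson under the quasi-likelihood dispersion, chosen after both forms were tried on simulated counts, and edgeR's default was added as an alternative. DESeq2 1.42.0 and a quasi-binomial model were alternatives, as were other count minimums, thinning and leaving out each library. Host genes were tested on gene counts (adjusted p under 0.01, mean at least 50). An exon's intervals are exact (Clopper-Pearson) at 95%, and the least level at 0 skipping counts allows 3 counts. Both cover counting error alone. Levels are given with SD over libraries.

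Genes were named by rule. The rule took the called long events without overlap between libraries (5 largest in each direction, per comparison), the 10 smallest p over the 6 cell types, the 5 called with the smallest p for SecPDG against AbsPro, called splicing factors, and the long exons of genes the study named for splicing. The 3 smallest p of each comparison, the exons over 1000 bases and the exons of the lists were added after their values were seen. Annotation and sequences are from GENCODE transcripts on mm10.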

Additional observations from a re-analysis of the deposited data

Results flagged for a closer look

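In 9 of 47 groups of 4 or 5 libraries of a named exon, 1 library stood apart from the others by Dixon's criterion, which chance alone meets in about 1 in 20 groups. In 4 of the 9, those of Med15, Commd1 and Prpf39, all other libraries were at the ceiling of 100%, where any departure meets the criterion and that rate does not hold. The Ceacam1 exon of 255 bases was at 84.4% in Tuft 3, on 387 counts, while the next Tuft library was at 67.4%. In the same place of Tuft, the Sorbs2 exon was at 43.4% on 28 counts, with the next at 7.99%, and the Prpf39 exon was at 0% on 3 counts, with the others at 100%. The Mbnl1 exon was at 93.3% in Tuft 1, on 163 counts, with the next at 38.5%.

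In SecPDG, the Prpf39 exon was at 20.7% in SecPDG 1, on 224 counts, with the others at 100%. The 9930021J03Rik exon was at 100% in SecPDG 1, on 7 counts, with the next at 69.8%. The Med15 exon was at 86.4% in SecPDG 2, on 42 counts, and the Commd1 exon at 94.2% in SecPDG 4, on 317 counts, both with the others at 100%. In Enterocyte 4 the Cdhr5 exon was at 76.4%, on 1549 counts, with the next at 80.3%.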

How the results depend on the processing

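The count of long events that differed over the 6 cell types was 7, and it was 2 with DESeq2, 28 with the quasi-binomial model, 4 at a mean count of at least 50, 1 at an adjusted p under 0.01, 3 for exons over 300 bases and 0 with thinned counts, where 18 long events could be tested. Among alternatives chosen after seeing the data it was 0 with edgeR's default dispersion, 0 without both EEC libraries and 3 with at least 1 count in every library. Leaving out 1 library gave 1 to 11, with 1 without EEC 2, 4 without Enterocyte 4 and 11 without AbsPro 3. The cause was not tested. These counts stand here without the share of all events called in the same fit, and tell only how the number of calls moved.

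Against Stem, the count of 0 became 18 of 669 without a count minimum in SecPDG (122 of all 6150 events), and 0 to 2 when 1 library was left out (2 without Stem 2). In Enterocyte it became 2 with thinned counts, 1 in the joint fit, and 0 to 1 when 1 library was left out (1 without Enterocyte 4). In EEC it became 1 with DESeq2, 3 with the quasi-binomial model, 3 without a minimum and 4 in the joint fit, and stayed at 0 with 1 library left out, where a lone EEC library is assumed to vary like the others. For SecPDG against AbsPro it was 0 to 1 (1 without SecPDG 4). Apart from SecPDG without a count minimum, these counts stand without the share of all events called in the same fit.

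Of the 6 host genes, the count called at gene level in Tuft was 0, and 1 with DESeq2, 2 at an adjusted p under 0.05, 2 with the replicate block and 0 to 1 with 1 library left out. In Enterocyte it was 1, and 2 with DESeq2, 2 with DESeq2 size factors, 3 at an adjusted p under 0.05, 3 with the replicate block and 0 to 4 with 1 left out (0 without Stem 1, 4 without EEC 1). In EEC it was 1, and 2 at an adjusted p under 0.05, 1 with the replicate block and 1 to 3 with 1 left out (3 without EEC 2), and in SecPDG it was 0 to 1 (1 without EEC 1). The host gene counts of these alternatives stand without the share of all genes called in the same fit. The replicate numbers were taken only as names of the libraries. Over 44 same-numbered pairs the correlations of deviations ran from -0.438 to 0.35. Pairs with different numbers were not compared, so these values cannot tell whether cell types shared mice or sorts. No paired analysis was possible for the exons because the splicing tables carry no library names. Depth limited the exons most in EEC 1, with 6449 counts on the long events.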
